A study of Mus musculus with 6 samples.

Results

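The nuclear genes for the mitochondrial respiratory chain were examined in cultured mouse muscle stem cells (MuSCs). Members were chosen by symbol: those that begin with Nduf, Uqcr, Cox4 to Cox8 or Atp5, and Sdha to Sdhd. The rule found 92 of the 18943 genes in the deposited table, after 6 symbols marked -ps were left out. They comprise 36 complex I subunits, 4 of complex II, 8 of complex III, 17 of complex IV, 17 of ATP synthase (complex V), 8 Ndufaf assembly factors, the supercomplex factor Cox7a2l and the pseudogene Ndufs6b. No gene of the mitochondrial genome is listed in the table, so the core subunits encoded there were not analysed here.

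Complexes I and II pass electrons from NADH and succinate to ubiquinone, complex III hands them to cytochrome c, and complex IV reduces oxygen. Complexes I, III and IV pump protons, and ATP synthase uses the gradient to make ATP. Several small complex IV subunits exist as a general isoform and as an isoform of heart and skeletal muscle, and the latter replaces the former as muscle fibers mature.

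MuSCs are the resident stem cells of skeletal muscle, which form new fibers once activated. They were purified by FACS from wild-type C57BL/6 mice of 8 weeks and cultured for 5 days. The 6 libraries fall into 3 groups of 2, DMSO (the solvent control), 100 nM endothelin-3 (ET-3) and 100 nM neurotensin (NT), all doses as the labels give them, whereas the culture methods of the study state higher ones. ET-3 and NT are peptides that act on G protein-coupled receptors, and the comparison asks how each ligand alters the transcriptome of MuSCs that would otherwise enter differentiation. The study's overview of these data speaks of means of several biological samples, and how many animals or cultures went into each of the 2 deposited libraries of a group is not given in the sources used here.

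The deposited values are reads per gene multiplied by 1 factor per library and rounded, and each value below is on that scale. They summed to between 4214458 and 4600575 per library, from an estimated 3629043 to 5396233 reads on genes. The factors were 0.994 and 1.15 for DMSO, 1.19 and 1.09 for ET-3, and 0.855 and 0.781 for NT. The 2 libraries of a treated group differed by no more than repeated sampling of the same RNA would, as the mean chi-square over genes (1 where only sampling acts) was 0.859 for ET-3 and 0.927 for NT against 1.48 for DMSO. The p-values therefore measure the spread between these libraries, which may be technical, and counts are also given with each treated pair averaged into 1 sample. The ET-3 and NT comparisons share the DMSO libraries.

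Pax7, the transcription factor that marks MuSCs, had values of 857 and 1070 in DMSO, 1754 and 1730 after ET-3, and 1653 and 1599 after NT. Of the 6 genes of the muscle stem cell list, Pax7 and Vcam1 rose and Itga7 fell under ET-3, and Pax7 and Vcam1 rose and Myf5, Myod1 and Itga7 fell under NT, the last 3 with log2 fold changes of -0.26, -0.27 and -0.42. All 10 genes of a muscle differentiation list, among them myogenin and the myosin heavy chains Myh3 and Myh8, fell under both ligands. Their summed value was 16032 and 17599 in DMSO, 606 and 670 after ET-3, and 656 and 546 after NT. The cells labelled as muscle stem cells thus carried the stem cell marker in every library, and muscle differentiation transcripts mainly in DMSO. In bulk RNA, fewer cells of a type and less RNA per cell cannot be told apart.

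Among the respiratory chain genes, 3 muscle isoforms of complex IV and the low Ndufa4l2 showed the largest changes. Cox8b, Cox6a2, Cox7a1 and Ndufa4l2 fell at least 2-fold under both ligands, as did the complex I subunit Ndufv3 and the complex I assembly factor Ndufaf3. The remaining members moved little, with a median log2 fold change over the 90 tested members of -0.08 under ET-3 and -0.30 under NT, where that of all 13921 tested genes was -0.01 in each comparison. The heat map of members by library shows these 6 genes as dark blue in the treated libraries and most other rows as paler. The low genes Cox4i2 and Cox6b2 also reach strong colors in single libraries.

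**Figure D1:**
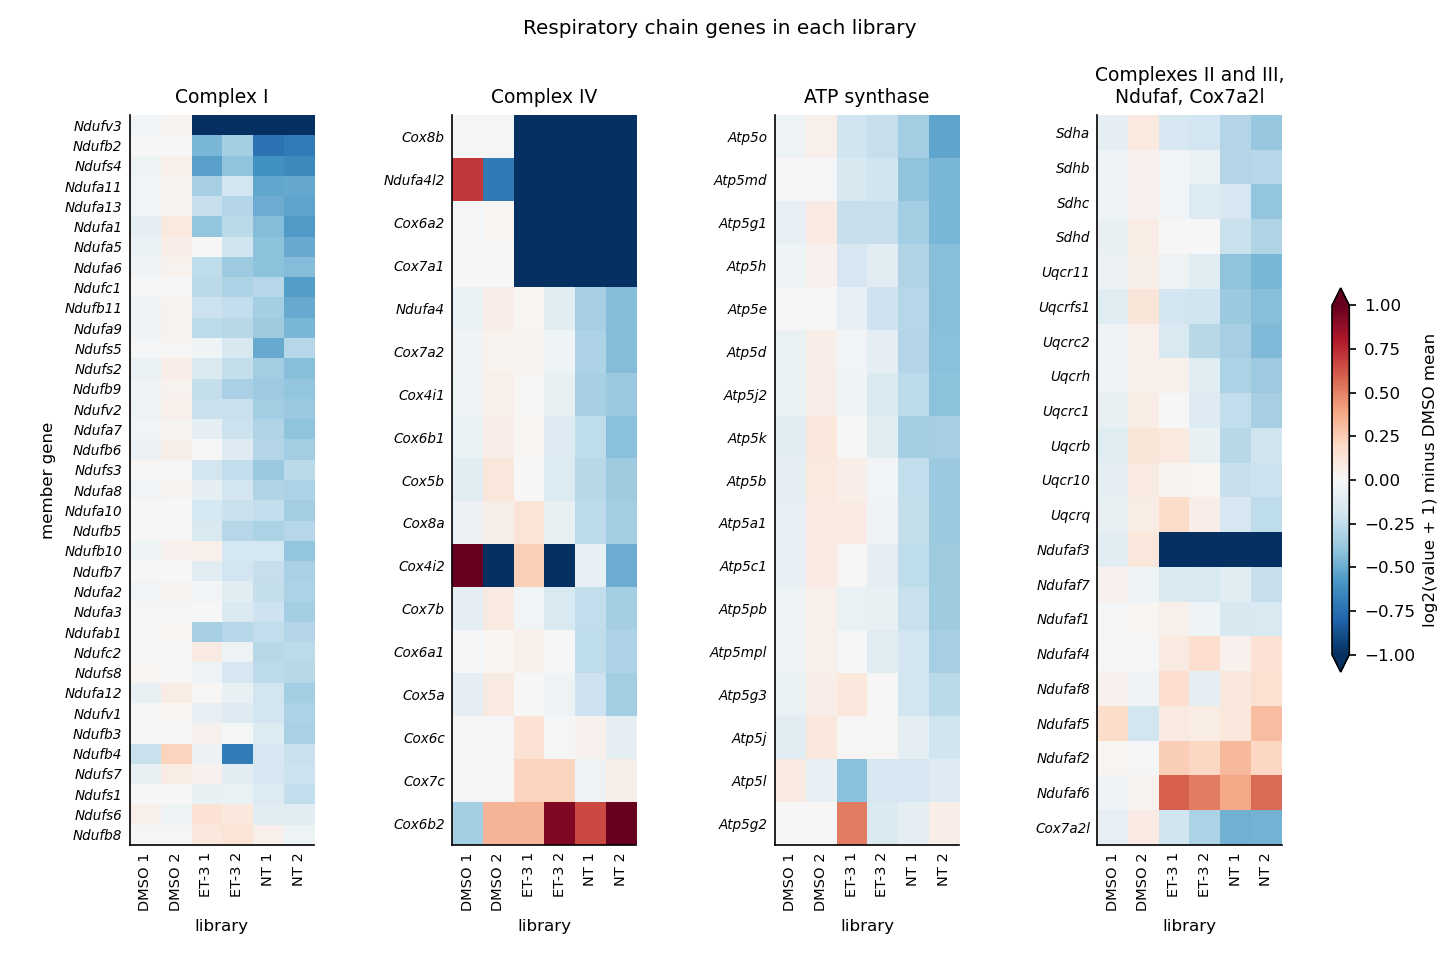
Each member gene except Ndufs6b (rows, grouped by complex and ordered by the NT change) in each of the 6 libraries (columns), as log2(value + 1) minus the mean of both DMSO libraries, with the color scale ending at -1 and 1. Cox8b, Ndufa4l2, Cox6a2, Cox7a1, Ndufv3 and Ndufaf3 lie at the low end in all 4 treated libraries, Ndufaf6 lies above DMSO in all 4, and Cox4i2, which was too low to test, varies within groups.

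Cox8b, the heart and muscle isoform of subunit VIII (chr7:140898945-140900446, minus strand, GRCm38), had values of 80 and 79 in the DMSO libraries and 0 in both ET-3 and both NT libraries. With a floor of 3 reads per library, it was at least 23.2-fold lower after ET-3 and at least 32.4-fold lower after NT (limma adjusted p = 6.95e-07 and 7.51e-07). Its general partner Cox8a had 275 and 297 in DMSO, 313 and 272 after ET-3, and 238 and 226 after NT. Cox8a thus overlapped with DMSO under ET-3 and lay below it under NT (log2 fold change 0.03 and -0.30, SE 0.08, limma adjusted p = 0.772 and 0.00986), and its NT call was lost without either DMSO or the second NT library, with the library total and with the trend against length and level removed. Per exonic length, Cox8b made up 33.3% and 31.4% of the Cox8 pair in DMSO.

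Cox6a2, the heart and muscle form of subunit VIa (chr7:128205435-128206387, minus strand), had values of 151 and 155 in DMSO, 30 and 36 after ET-3, and 23 and 38 after NT. It fell under both ligands (log2 fold change -2.18 and -2.33, SE 0.24, limma adjusted p = 2.2e-05 and 1.47e-05). Cox6a1, the general form, had 313 and 323, then 330 and 319, then 267 and 256 in the same order. The share of Cox6a2 in the pair, per exonic length, went from 33.2% and 33.1% in DMSO to 8.58% and 10.4% after ET-3 and 8.17% and 13.3% after NT. The Cox6a2 exons overlap Itgad over 10.3% of their length, and reads in such overlaps were left out by the authors' counting.

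Cox7a1, the heart and muscle form of subunit VIIa (chr7:30184144-30186078, plus strand), had values of 27 and 27 in DMSO, 2 and 3 after ET-3, and 8 and 4 after NT. On the deposited scale, Cox7a1 was 0.105 of DMSO after ET-3 (95% counting interval 0.0326 to 0.261) and 0.21 after NT (0.107 to 0.385). It passed the test in both comparisons (limma adjusted p = 0.000105 and 0.0014). Cox7a2, the general form, had 255 and 269 in DMSO, 267 and 254 after ET-3, and 211 and 194 after NT. Cox7a2l, a relative that helps join complexes III and IV into supercomplexes, fell under both ligands, from 232 and 260 to 214 and 197 after ET-3 and to 176 and 177 after NT (log2 fold change -0.26 and -0.47, SE 0.09, limma adjusted p = 0.0234 and 0.0008), and its ET-3 call was lost with the library total, with averaged pairs and without any of 4 single libraries.

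Ndufa4l2, a hypoxia-responsive relative of the complex IV subunit Ndufa4, was low throughout, with 23 and 8 in DMSO, 1 and 0 after ET-3, and 1 and 1 after NT. The DMSO libraries differed from each other more than for the other members called at 2-fold, and both calls were lost when each treated pair counted as 1 sample. Ndufa4 itself had 280 and 308, then 298 and 272, then 233 and 217. Cox4i2 had at most 8 in any library and was not tested, whereas Cox4i1, the general subunit IV, had between 380 and 511. Cox6b2, a form best known from testis, had 4 and 7 in DMSO, 7 and 11 after ET-3, and 9 and 12 after NT, and did not pass the test (limma adjusted p = 0.2 and 0.0945). The plot of isoform pairs shows the muscle forms falling away from their general partners in both treated groups.

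**Figure D2:**
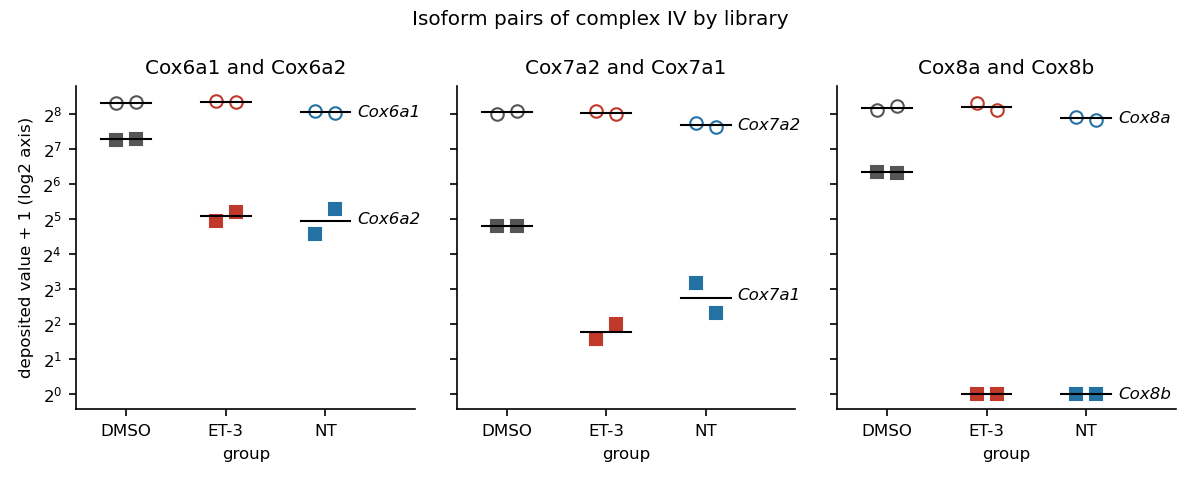
Deposited value + 1 on a log2 axis for 3 isoform pairs of complex IV in each library, with open circles for the general form, filled squares for the muscle form and black lines for the group mean on the log2 scale. The muscle forms Cox6a2, Cox7a1 and Cox8b are lower in all 4 treated libraries than in both DMSO libraries, and Cox8b is at 0 in each of the 4.

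To set the 2 kinds of isoform side by side, the 250 bases before the RefSeq gene start (GRCm38.p6) are shown for the muscle forms Cox8b and Cox7a1, which fell, and for their general partners Cox8a and Cox7a2. Cox6a1 is added, after its matches were seen, as a general form that holds matches to both the NRF1 and the ETS core. Capitals mark matches on either strand to 3 letter patterns: CANNTG, the E-box that myogenic factors bind, GCGCANGCG, the core of the NRF1 site, and CCGGAAG, the core of the site of GABPA and other ETS factors.
Cox8b: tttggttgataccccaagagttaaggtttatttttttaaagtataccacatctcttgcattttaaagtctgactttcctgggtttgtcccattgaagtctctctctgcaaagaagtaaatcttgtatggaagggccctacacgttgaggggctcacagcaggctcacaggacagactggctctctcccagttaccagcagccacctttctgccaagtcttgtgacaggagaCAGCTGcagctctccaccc
Cox7a1: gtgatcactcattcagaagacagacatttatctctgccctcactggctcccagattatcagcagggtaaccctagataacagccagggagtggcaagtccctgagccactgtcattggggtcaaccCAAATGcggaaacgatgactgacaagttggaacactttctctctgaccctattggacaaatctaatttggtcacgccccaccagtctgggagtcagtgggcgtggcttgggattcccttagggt
Cox8a: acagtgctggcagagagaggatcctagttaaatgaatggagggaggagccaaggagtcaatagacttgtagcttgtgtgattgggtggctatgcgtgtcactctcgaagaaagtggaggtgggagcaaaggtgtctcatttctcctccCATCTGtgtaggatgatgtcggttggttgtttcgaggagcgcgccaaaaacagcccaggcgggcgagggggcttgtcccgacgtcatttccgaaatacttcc
Cox7a2: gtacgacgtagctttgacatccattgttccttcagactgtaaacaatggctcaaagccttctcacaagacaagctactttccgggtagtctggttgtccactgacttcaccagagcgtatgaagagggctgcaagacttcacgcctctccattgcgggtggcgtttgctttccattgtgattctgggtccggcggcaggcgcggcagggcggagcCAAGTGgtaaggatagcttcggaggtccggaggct
Cox6a1: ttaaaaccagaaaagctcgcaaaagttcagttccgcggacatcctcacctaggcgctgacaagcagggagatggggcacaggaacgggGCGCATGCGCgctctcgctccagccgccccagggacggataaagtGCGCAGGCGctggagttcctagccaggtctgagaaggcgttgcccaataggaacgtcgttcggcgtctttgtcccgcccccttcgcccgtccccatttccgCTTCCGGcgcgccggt
They lie at chr7:140900447-140900696 (minus strand), chr7:30183921-30184170 (plus strand), chr19:7217617-7217866 (minus strand), chr9:79759854-79760103 (minus strand) and chr5:115348959-115349208 (minus strand). The E-box match in Cox8b is CAGCTG. The Cox6a1 sequence holds 3 matches to the NRF1 core, of which 2 overlap, and 1 to the ETS core, whereas each of the other 4 sequences holds 1 E-box match and neither core.

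RefSeq promoters were matched for 75 members. Among the 80 windows of these members, the NRF1 core occurred in 20% (5.2% of 32536 promoters of the same length) and the ETS core in 17.5% (6.95% of all). CANNTG occurred in 62.5% (66.2% of all) and its form CAGCTG in 7.5% (13.1% of all). The estrogen-related receptor motif AAGGTCA was found in 6.25% (4.09% of all). A MEF2 site and a serum response factor CArG box, by their consensus, were found in 0 member sequences, where 2.89% and 1.48% of all promoters hold one. These matches are a description of the letters in this window. There was no RefSeq promoter entry for Cox6a2 or Ndufa4l2.

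Across all members, 28 of 90 fell and 1 rose under ET-3 at an adjusted p of at most 0.05, where 33.2% of all tested genes fell and 30.6% rose. At 2-fold in addition, 6 members fell and 0 rose, against 14.9% and 6.62% of all genes. The share of members that fell was 31.1%, and the share that rose was 1.11%. How the members stood to all genes depended on the processing. Without the second DMSO library 11 members fell, in a fit where 28.3% of all genes fell, and without the second ET-3 library 14 fell (29.9% of all genes). With each treated pair averaged as 1 sample 5 fell (18.3% of all genes), and with scaling to the library total 11 fell (29.3%). After removal of a trend against exonic length and level 45 fell (32.2%). The 5 members left with averaged pairs were Cox8b, Cox6a2, Cox7a1, Ndufv3 and Ndufaf3.

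Under NT, 70 of 90 members fell (77.8%) and 2 rose, where 32.5% of all tested genes fell and 29.7% rose. At 2-fold in addition, 6 fell and 0 rose, against 13.2% and 7.3% of all genes. The 70 members were spread over the complexes, and most changes were small, between -0.19 (Ndufs1) and -0.72 (Ndufb2) on the log2 scale outside the 6 genes above. Without the second DMSO library 44 members fell, in a fit where 26.0% of all genes fell, and without the second NT library 41 fell (26.3% of all genes). With each treated pair averaged as 1 sample 7 fell, where 15.8% of all genes did, a larger share than among the members. The 7 include Cox8b, Cox6a2, Cox7a1, Ndufv3 and Ndufb2, and among the members that the rule for naming chose, every other NT call was lost in that fit. With scaling to the library total, 52 members fell and 3 rose, in a fit where 26.6% of all genes fell and 37.2% rose. The plot of changes by complex shows the NT medians of complexes I to V close to -0.3 and that of the Ndufaf factors above 0.

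**Figure D3:**
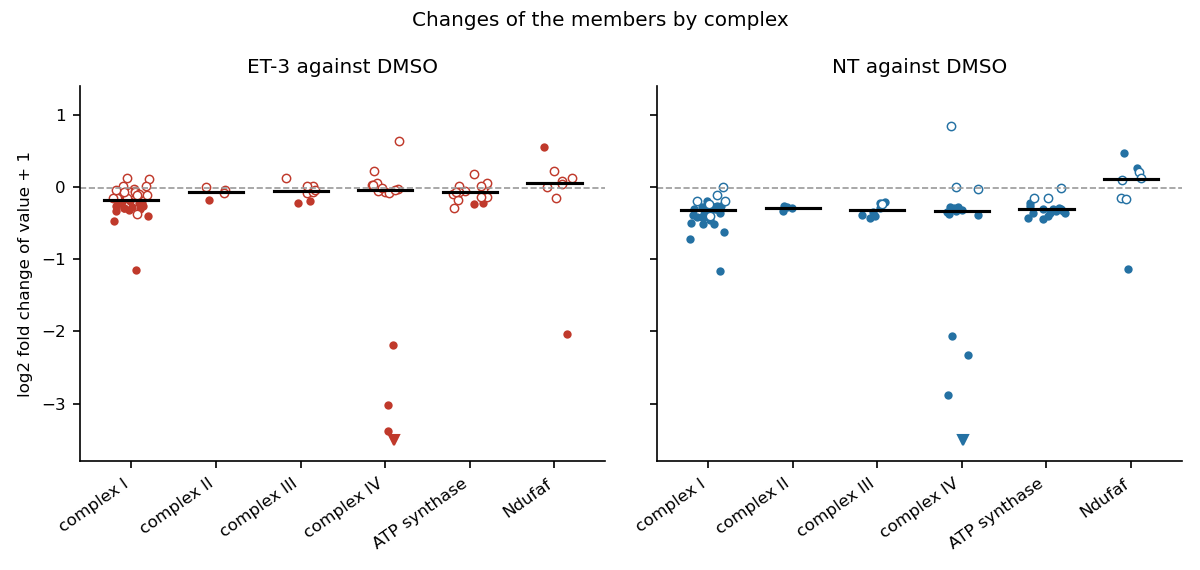
Log2 fold change of value + 1 for each tested member by complex (points), with ET-3 against DMSO on the left and NT against DMSO on the right, filled where the limma adjusted p is at most 0.05. Black bars are medians, the dashed line is the median of all tested genes, and the triangle stands for Cox8b at -6.33, below the axis. The NT medians of the 5 complexes lie between -0.28 and -0.33 and those for ET-3 between -0.04 and -0.17.

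In complex I, the NADH dehydrogenase, 17 of 36 subunits fell under ET-3 and 30 under NT, and 0 rose under either. Beside the counts for this and the next complexes and the Ndufaf factors, 33.2% of all tested genes fell and 30.6% rose under ET-3. Under NT, 32.5% fell and 29.7% rose. No complex was tested against these shares. Ndufv3, an accessory subunit of the NADH-binding module (chr17:31520115-31531331, plus strand), changed most. It had values of 311 and 324 in DMSO, 141 and 143 after ET-3, and 135 and 148 after NT. The 4 treated libraries lay close together and below DMSO, at 0.449 and 0.447 of its level (SE of the log2 fold change 0.08, limma adjusted p = 1.3e-06 and 1.37e-06). Ndufv1 and Ndufv2, core subunits of the same module, had log2 fold changes of -0.11 and -0.22 under ET-3 and -0.26 and -0.36 under NT. Ndufv1, Ndufv2, Ndufs1, Ndufb8 and Ndufs6 are named here after their values were seen.

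Ndufs4, a subunit needed for the stable assembly of complex I, went from 260 and 280 to 185 and 204 after ET-3 and to 177 and 173 after NT. Ndufb2, a membrane-arm subunit, went from 125 and 126 to 91 and 99 and to 75 and 77. Both fell under both ligands, with log2 fold changes of -0.47 and -0.62 for Ndufs4 and -0.40 and -0.72 for Ndufb2 (limma adjusted p = 0.000619, 9.89e-05, 0.0145 and 0.000495). The ET-3 call of Ndufb2 was lost without the second DMSO or the first ET-3 library, with each treated pair averaged, and after removal of a trend against length and level. At the other end, Ndufb8 had 249 and 254 in DMSO, 270 and 276 after ET-3, and 261 and 243 after NT, and Ndufs6 had 185 and 173, 198 and 193, and 166 and 166. Ndufa2, the complex I member with the most reads per exonic base (0.392), went from 238 and 246 to 237 and 224 after ET-3 and fell to 205 and 194 after NT (limma adjusted p = 0.434 and 0.00843). That NT call was lost without the second DMSO or the second NT library, with the library total and with the trend removed. With the trend removed, the ET-3 changes of Ndufa2, Ndufv1 and Ndufs1, among others, passed (log2 fold change -0.22, -0.24 and -0.12, limma adjusted p = 0.0231, 0.000631 and 0.0208).

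Complex II, succinate dehydrogenase, has only nuclear subunits and also acts in the tricarboxylic acid cycle. All 4 fell under NT, with log2 fold changes of -0.26 to -0.33, and 1 of 4 under ET-3. Sdha, the flavoprotein, had values of 1191 and 1360 in DMSO, 1131 and 1117 after ET-3, and 1039 and 981 after NT. Sdhb, the iron-sulfur subunit, had 459 and 488, then 465 and 452, then 387 and 388. For the membrane anchors, Sdhc had 468 and 495, 473 and 438, and 429 and 365, and Sdhd had 527 and 583, 556 and 552, and 475 and 451. Thus the NT libraries lay below both DMSO libraries for each subunit, whereas the ET-3 libraries overlapped with DMSO for Sdhb, Sdhc and Sdhd. The ET-3 call of Sdha (limma adjusted p = 0.028) was lost under 10 of the alternatives, among them each of 5 single libraries left out. Once the trend against length and level was removed, Sdhb and Sdhc also passed under ET-3 (log2 fold change -0.15 and -0.19, limma adjusted p = 0.0233 and 0.0302). The NT call of Sdhc was lost without either DMSO or the second NT library and with the library total, and that of Sdhd without the second NT library and with the trend removed.

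In complex III, cytochrome c reductase, 7 of 8 subunits fell under NT and 2 under ET-3. The 2 were Uqcrc2, a core protein, with 672 and 723 in DMSO, 628 and 574 after ET-3, and 554 and 513 after NT, and Uqcrfs1, the Rieske iron-sulfur protein, with 454 and 536, 431 and 429, and 382 and 366. The ET-3 call of Uqcrc2 was lost without either DMSO or the second ET-3 library and that of Uqcrfs1 without any of 5 single libraries, and both with the library total and averaged pairs. With the trend against length and level removed, Uqcrc1, named after its values were seen, also passed under ET-3 (log2 fold change -0.20, limma adjusted p = 0.00354). Uqcr11 had the largest NT change of the complex, from 179 and 195 to 141 and 136 (log2 fold change -0.43, SE 0.09, limma adjusted p = 0.00188, lost with the trend removed), and was at 180 and 174 after ET-3. Uqcr10, the member of the complex with the most reads per base (0.394), went from 225 and 256 to 204 and 207 after NT and was at 244 and 243 after ET-3 (limma adjusted p = 0.0339 and 0.835). The NT call of Uqcr10 was lost under most alternatives, and its change turned to 0.01 once the trend against length and level was removed.

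Among the 16 tested complex IV subunits, Cox8b, Cox6a2, Cox7a1 and Ndufa4l2 were the only ones that fell under ET-3 in the main fit, and 13 fell under NT. The general subunits had small NT changes, for example -0.35 for Cox4i1, -0.34 for Cox6b1, -0.38 for Ndufa4 and -0.28 for Cox6a1 (SE 0.06 to 0.08), while their ET-3 changes lay between -0.06 and 0.03. The NT call of Cox6b1 was lost without the second DMSO or the second NT library, and those of Cox6b1, Cox6a1 and Cox7a2 with the trend removed. With the trend removed, the ET-3 changes of Cox4i1 and Cox6b1 passed (log2 fold change -0.13 and -0.17, limma adjusted p = 0.0364 and 0.0346). Cox6c (210 and 206, 230 and 205, 214 and 195), Cox7c (137 and 140, 162 and 162, 134 and 144) and Cox6b2 did not pass in the NT comparison. Cox8a had the most reads per base of the complex (0.435).

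In ATP synthase, 14 of 17 subunits fell under NT and 2 under ET-3 in the main fit. Atp5o, the stalk subunit that confers oligomycin sensitivity, had 256 and 276 in DMSO, 232 and 226 after ET-3, and 209 and 184 after NT, and 47.9% of its exonic length overlaps other annotated genes. Atp5g1, 1 of 3 genes for the same c subunit of the rotor ring, had 237 and 266, 214 and 214, and 197 and 183. These were the 2 subunits that also fell under ET-3 (log2 fold change -0.21 and -0.23, limma adjusted p = 0.0464 and 0.0341). Both ET-3 calls were lost under most alternatives, among them no filter, either other scaling, averaged pairs, and 4 single libraries left out for Atp5o and 5 for Atp5g1. Once the trend against length and level was removed, Atp5a1, Atp5b, Atp5c1, Atp5d, Atp5h and Atp5pb also passed under ET-3. Their log2 fold changes there lay between -0.14 and -0.21 (limma adjusted p between 0.00496 and 0.0283). Those of them outside the rule for naming are named after their values were seen. Atp5md, a small subunit tied to ATP synthase dimers, fell under NT, from 107 and 105 to 80 and 77, and was at 95 and 92 after ET-3.

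Of the other c subunit genes, Atp5g3 fell under NT and Atp5g2 passed in neither comparison. Atp5g3, with 74.1% to 77.4% of the family per exonic length in every library, had 546 and 597 in DMSO, 615 and 574 after ET-3, and 503 and 474 after NT. Atp5g2 had 62 and 62, 89 and 56, and 58 and 65, with the ET-3 libraries on either side of DMSO. Atp5a1, the alpha subunit of the catalytic head and the member with the most reads per base of all (0.471), had 1481 and 1663, 1664 and 1535, and 1328 and 1216. It overlapped with DMSO under ET-3 and lay below it under NT (log2 fold change 0.03 and -0.30, SE 0.07, limma adjusted p = 0.751 and 0.00276). The NT call of Atp5a1, like that of Atp5g3, was lost without the second DMSO or the second NT library and with averaged pairs, and that of Atp5md without the second NT library.

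The 8 Ndufaf factors, which help assemble complex I and are not part of it, had 1 lower and 1 higher under ET-3 and 1 lower and 2 higher under NT, and no test was made of their difference from the subunits. Ndufaf3 (chr9:108565537-108567434, minus strand) had 88 and 103 in DMSO, 21 and 24 after ET-3, and 43 and 43 after NT. It thus fell to 0.244 and 0.457 of its DMSO level (log2 fold change -2.04 and -1.13, SE 0.19, limma adjusted p = 7.91e-06 and 0.000523), with the NT libraries above the ET-3 libraries. The NT call was lost with each treated pair averaged.

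Ndufaf6 rose under both ligands, from 65 and 68 to 101 and 95 after ET-3 and to 87 and 99 after NT (log2 fold change 0.55 and 0.48, SE 0.14, limma adjusted p = 0.00499 and 0.0115). Both calls of Ndufaf6 were lost with each treated pair averaged, and the NT call also without the first DMSO or the second NT library. Ndufaf2 had 126 and 123, 148 and 144, and 156 and 144, and rose under NT (limma adjusted p = 0.062 and 0.0353), but 65.6% of its exonic length overlaps another annotated gene and its call was lost without any 1 of the DMSO or NT libraries. Ndufaf1 had 199 and 205, 209 and 196, and 181 and 182 and passed in neither comparison. The other 4 factors passed in neither comparison.

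The members stand apart from most genes in how densely reads covered them. Their median was 0.156 reads per exonic base, against 0.0444 for all tested genes, and their median exonic length was 1631 bases against 4293. No tested gene exceeded 0.742 reads per base. Over all tested genes, the log2 fold change of NT against ET-3 went from a median of 0.13 under 0.01 reads per base to -0.29 at 0.4 or more, and the mean log2 factor of the NT libraries was 0.48 below that of the ET-3 libraries. The member medians of NT against ET-3 were -0.11 for the 20 members at 0.03 to 0.1 reads per base and -0.21 for the 32 at 0.1 to 0.2, beside 0.05 and -0.05 for all genes of these ranges. They were -0.23 for the 18 members at 0.2 to 0.3, -0.24 for the 9 at 0.3 to 0.4 and -0.32 for the 4 at 0.4 or more, beside -0.15, -0.23 and -0.29. From 0.03 reads per base upward, the member medians thus lay below those of all genes, but near them from 0.3 upward. At 0.01 to 0.03, 5 members had a median of 0.18 beside 0.13 for all genes. Under 0.01, 2 members had 0.36 beside 0.13. These ranges were chosen after the values were seen, and the part of the library factors in the results was not tested.

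Set beside genes of like coverage, the members lay lower under both ligands. At 0.1 to 0.2 reads per base, the member median was -0.07 under ET-3 and -0.29 under NT, where all 2404 genes of that range had medians of 0.10 and 0.02. At 0.03 to 0.1 it was -0.15 and -0.29, beside 0.01 and 0.05 over 5028 genes. At 0.2 to 0.3, with 18 members, it was -0.07 and -0.34, beside 0.13 and -0.05 over 647 genes. At 0.4 or more, the 4 members had -0.29 under NT beside -0.22 over 73 genes. After the trend against length and level was removed, the member medians were -0.16 under ET-3 and -0.23 under NT, with 45 and 53 members lower and 2 and 4 higher. The medians over all genes of that fit were 0.02 under both ligands. Of all genes, 32.2% fell and 32.8% rose under ET-3 there, and 31.4% fell and 32.6% rose under NT.

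**Figure D4:**
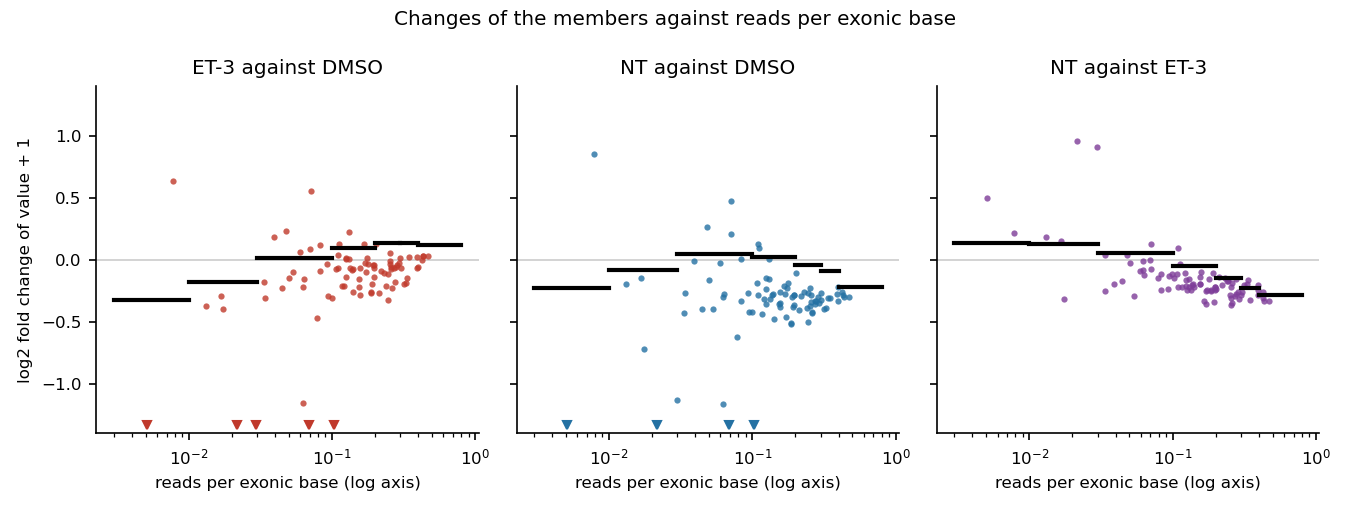
Log2 fold change of value + 1 for each tested member (points) against its reads per exonic base on a log axis, in the 3 comparisons. Black bars are medians of all tested genes in 7 ranges of reads per base, and triangles mark members below -1.3. The member medians lie under the bars at 0.03 reads per base or more in all 3 comparisons. In NT against ET-3 the gap is wide at 0.03 to 0.1 reads per base (-0.11 against 0.05). It is small at 0.3 to 0.4 (-0.24 against -0.23) and at 0.4 or more (-0.32 against -0.29).

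Division of each value by its library factor gives the estimated reads. Of the 63 members at 0.1 reads per base or more, 46 varied less over the 6 libraries after this division, and their median SD of log2 values went from 0.163 to 0.136. Of the 27 members under 0.1 reads per base, 12 varied less. The same counts were not made over all tested genes, so they are not read as a trait of the members. Which scale stands closer to the RNA in the cells was not tested. Estimated reads are not corrected for depth, which was highest in the NT libraries.

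In the direct comparison of the ligands, 8 members were lower and 1 higher under NT than under ET-3, where 2.05% and 0.647% of all tested genes were. Ndufaf3 was the member that was higher under NT (log2 difference 0.91, SE 0.19, limma adjusted p = 0.0432). The 8 lower members, Cox7a2, Cox4i1, Cox6a1, Uqcrq, Atp5a1, Atp5b, Atp5d and Atp5g3, had log2 differences between -0.28 and -0.36 and at least 0.167 reads per base. Atp5b, Atp5d and Uqcrq, like Cox6c and Cox7c above, are named after their values were seen. The counts of members past the threshold ranged from 0 to 23 under the alternatives, and 0 passed after removal of the trend or without any 1 library.

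Genes outside the rule that serve the same pathway are given from lists of general knowledge. Of all tested genes, 33.2% fell and 30.6% rose under ET-3, and 32.5% fell and 29.7% rose under NT. No list was tested against these shares. Of 39 other assembly factors, 16 fell and 2 rose under ET-3, and 19 fell and 3 rose under NT. Cox17, a copper chaperone for complex IV, went from 89 and 84 to 43 and 31 after ET-3 and to 36 and 33 after NT, and Sco1, which passes copper to complex IV, from 366 and 386 to 201 and 187 and to 215 and 223. Of 14 genes for cytochrome c and ubiquinone synthesis, 4 fell and 3 rose under ET-3 and 6 fell and 4 rose under NT. Coq8a, a kinase-like protein of ubiquinone synthesis, went from 415 and 409 to 13 and 12 and to 18 and 12, while Pdss1 and Pdss2, which make the ubiquinone side chain, rose under both ligands (log2 fold change 0.53 to 0.77). These genes were named after their values were seen.

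In the tricarboxylic acid cycle, 5 of 14 genes fell and 1 rose under ET-3, and 10 fell and 1 rose under NT, with a median log2 fold change of -0.03 and -0.20. Beside this and the next lists, 33.2% of all tested genes fell and 30.6% rose under ET-3, and 32.5% and 29.7% under NT. Among 13 regulators of respiratory gene transcription, 4 fell and 6 rose under ET-3 and 3 fell and 6 rose under NT. Ppargc1a, the coactivator PGC-1alpha, had values of 70 and 62 in DMSO, 14 and 14 after ET-3, and 21 and 22 after NT. Nrf1, the factor of the NRF1 site, had 388 and 346, 443 and 443, and 478 and 457 and rose under both ligands. Of 16 genes for mitochondrial DNA copying and transcription, 3 fell and 2 rose under ET-3 and 2 fell and 3 rose under NT. Tfam, which packages mitochondrial DNA, had 409 and 354, 394 and 406, and 380 and 378. Of 11 outer membrane and carrier genes, 2 fell and 4 rose under ET-3, and 6 fell and 1 rose under NT.

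Marker lists of other cell types and their summed values stand beside these results. Summed values of the smooth muscle and pericyte list were 959 and 1042 in DMSO, 443 and 514 after ET-3, and 516 and 525 after NT, and all 3 tested genes of 5 fell, with the defining marker Myh11 at most 4. Summed endothelial values were 62 and 64 in DMSO and 98 to 128 in the treated libraries. Within that list, Tek had 2 and 1 in DMSO, 68 and 59 after ET-3, and 42 and 70 after NT, whereas Vwf fell under both ligands (log2 fold change -1.18 and -1.37). Summed fibroadipogenic values were 56 to 89 and macrophage values 21 to 45 over all 6 libraries. Cdh5 was at most 5 and Kcnj8 at most 2 in any library, and Itgam was at 0 in all 4 treated libraries. The muscle differentiation list moved together with Cox8b, Cox6a2 and Cox7a1, and its part in their fall was not tested.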

How the data were processed

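RNA of MuSCs sorted by FACS, cultured for 5 days and treated with DMSO, ET-3 or NT was sequenced in 6 libraries. The submitters' processing notes name Trimmomatic 0.38, STAR 2.7.7a, featureCounts 1.6.5, DESeq2 1.30.0 and build mm10 (GRCm38), whereas the methods of the study name another trimmer, library kit and RNA kit. By those methods, reads that overlap several genes or map to several places were left out. The deposited values are a signal per gene, namely reads multiplied by 1 factor per library and rounded by the authors, as gaps between the whole numbers show, and not raw counts. The scaling step is not described in the sources used here. The count test of the study was therefore replaced by limma 3.58.1 (R 4.3.3) with a mean-variance trend on log2(value + 1), over the 13921 genes whose mean value reached 5 and with all 6 libraries in 1 fit. P-values were adjusted by the Benjamini-Hochberg method over all these genes, with a threshold of 0.05, and a fold of 2 in addition where stated. The fit was tested on simulated data. Fold changes understate the change of low genes.

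Estimated reads are values divided by the library factor, and reads per exonic base use GENCODE M21 exons. Of the 92 members, 90 passed the filter, and Cox4i2 and Ndufs6b did not. Positions are those of the deposited table, and promoters come from RefSeq. The members and lists were chosen with earlier results of these data known. Members were named in full if they passed at 2-fold, had 1 of the 3 largest mean absolute changes of their complex, belonged to an isoform family, to complex II, or had the most reads per base of their complex. Counting intervals are exact at 95% and cover counting error only. Libraries with the same replicate number showed no shared deviation, with correlations of deviations of -0.01, -0.07 and -0.02. With 2 libraries a group, this cannot tell whether the libraries were paired by animal or culture. Alternatives were other filters, pseudocounts, scalings and weights, a replicate block, 2 groups alone, treated pairs averaged, the trend against length and level removed, subunits only, and each library left out. Python 3.11.15, numpy 2.4.6, pandas 2.3.3, scipy 1.17.1 and matplotlib 3.10.9 were used.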

Additional observations from a re-analysis of the deposited data

Results flagged for a closer look

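The direct comparison of both treated groups set 9 members apart, at limma adjusted p between 0.0379 and 0.0496. Ndufaf3, which helps assemble complex I, was higher under NT than under ET-3 by 0.91 on the log2 scale, with 43 and 43 against 21 and 24. The other 8 were lower under NT, with log2 differences of -0.36 for Cox7a2, -0.32 for Cox4i1 and -0.31 for Cox6a1 in complex IV, -0.34 for Uqcrq in complex III, and -0.33 for Atp5a1, -0.33 for Atp5b, -0.29 for Atp5d and -0.28 for Atp5g3 in ATP synthase. Each of these 8 had both NT libraries below both ET-3 libraries. They were chosen by this same comparison, and many members that did not pass also had this order, so it adds no support. The mean log2 library factor differed by -0.48 between the same groups, and its part in these differences was not tested. With 2 libraries a group, no library was tested for standing apart from its group.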

How the results depend on the processing

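Each group had 2 libraries, and the treated pairs differed by no more than sampling noise. Counts of members with small changes moved with the library left out, whether DMSO or treated, and with the library scaling. Depth limits Cox8b, Cox7a1 and Ndufa4l2, which had few or no reads after treatment. Members called at 2-fold numbered between 4 and 7 under every alternative, against 6.

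Members lower under ET-3 numbered 28, and 11 with scaling to the library total, 5 with each treated pair averaged, 45 with the trend against length and level removed and 11 to 23 without 1 library. Members higher under ET-3 numbered 1, and 3 with no filter, 8 with the library total, 4 with upper-quartile scaling, 0 with averaged pairs, 2 with the trend removed, 0 among subunits only and 1 to 2 without 1 library. Members lower under NT numbered 70, and 7 with averaged pairs and 41 to 67 without 1 library. Members higher under NT numbered 2, and 0 with averaged pairs, 4 with the trend removed, 0 among subunits only and 0 to 2 without 1 library. The median was -0.08 under ET-3, and 0.0131 with the library total, -0.16 with the trend removed and -0.136 to -0.0292 without 1 library, and under NT it was -0.30, and -0.19, -0.23 and -0.37 to -0.27 in the same settings. The 9 members that differed between NT and ET-3 became 0 with no filter, 17 with a mean of at least 20, 2 and 15 with pseudocounts of 0.5 and 5, 23 with voom weights, and 0 with 2 groups alone, averaged pairs, the trend removed or any 1 library left out. The replicate block gave 26 members lower under ET-3, 69 lower under NT and 0 different between NT and ET-3, and replicate numbers are not known to pair the libraries. Averaged pairs and left-out libraries also leave fewer samples, and the cause of these shifts was not tested.

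Small ET-3 changes turned sign. With the library total, the log2 fold change became 0.0583 for Cox4i1, 0.0338 for Cox6b1, 0.0807 for Cox7a2, 0.0185 for Ndufa2, 0.0443 for Ndufa4, 0.0432 for Sdhb, 0.00859 for Sdhc, 0.0883 for Sdhd and 0.011 for Uqcr11. With the upper quartile it became 0.0106 for Cox4i1, 0.033 for Cox7a2 and 0.0405 for Sdhd, and with voom weights 0.00276 for Sdhd and -0.00037 for Ndufaf1. With the trend removed it became -0.141 for Atp5a1, -0.0617 for Atp5g3, -0.0925 for Cox6a1, -0.109 for Cox8a, -0.0373 for Ndufaf1 and -0.126 for Uqcr10. Without 1 library, ET-3 changes ranged from -0.0573 to 0.11 for Atp5a1, -0.144 to 0.515 for Atp5g2, -0.0069 to 0.122 for Atp5g3, -0.0833 to 0.0219 for Cox4i1, -0.128 to 0.0179 for Cox6b1, -0.0466 to 0.0302 for Cox7a2, -0.0711 to 0.131 for Cox8a, -0.113 to 0.024 for Ndufa4, -0.0431 to 0.0491 for Ndufaf1, -0.0735 to 0.0719 for Sdhd and -0.0719 to 0.114 for Uqcr10. Under NT, Atp5g2 became 0.0976 with the library total, 0.0286 with the upper quartile, 0.0495 with the trend removed and -0.0946 to 0.0671 without 1 library, and Uqcr10 became 0.0124 with the trend removed. None of these ET-3 changes, nor the NT change of Atp5g2, had passed the test in the main fit. With the trend removed, the reversed ET-3 change of Atp5a1 did pass (limma adjusted p = 0.00496), while those of Atp5g3, Cox6a1, Cox8a, Ndufaf1 and Uqcr10 did not.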
